A study of Mus musculus with 6 samples.

Results

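Sox, Pax, Gata and Lhx genes encode 4 families of DNA-binding transcription factors, and this account follows the 42 of them whose symbols the array platform carries (19 Sox, 9 Pax, 6 Gata and 8 Lhx genes) among 17742 named genes. They were taken by symbol alone, through 49 of the 26423 probes. Where several probes carried 1 symbol, the probe with the highest mean intensity over the 6 arrays was used. Cy5-labelled RNA of female BALB/c mice was measured on 6 1-colour arrays. The labels name 3 tissues (brain, ovary, uterus), taken from mice without treatment (mock) or from mice dosed orally with SHT, the herbal preparation Sheng-Hua-Tang, at 200 mg/kg over 7 days. With 1 array in each group, differences inside a tissue carry no replicate check, and the small number of arrays limits the precision throughout. How many mice an array stands for, their age and oestrous stage, and whether tissues shared mice were not stated in the labels.

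Sox proteins bind DNA through a high-mobility-group box and bend it, Pax proteins bind through a paired domain, Gata proteins through zinc fingers that read the sequence after which they are named, and Lhx proteins through a homeodomain next to a pair of LIM domains that bind partner proteins. All 4 families are known for setting cell identity. In the brain, Sox genes keep neural progenitors and drive glial differentiation, and Lhx genes pattern the forebrain. In the female reproductive tract, Gata4 and Gata6 control steroid-producing genes of the ovary, Pax8 and Lhx1 act in the duct from which oviduct and uterus form, and Lhx8 acts in the oocyte.

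The values are intensities as deposited. Array medians lay between 179 and 224. Background was read from 529 olfactory receptor genes, as genes that are silent in most tissues. A gene was called above background where it exceeded the 95th percentile of these genes on that array, which was 541, 403, 275, 295, 312 and 318 in the order mock brain, SHT ovary, SHT brain, mock uterus, mock ovary and SHT uterus (labels).

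Tissue markers went against the labels of 4 arrays. Of 8 brain markers, 7 were above background under the labels mock brain and SHT ovary. On the other arrays 1 (SHT brain), 3 (mock uterus), 4 (mock ovary) and 5 (SHT uterus) were. Their summed intensity was 135514 (mock brain) and 135225 (SHT ovary), against at most 4674 on the others. Nefl, a neurofilament gene, read 7636 (labelled mock brain), 7462 (labelled SHT ovary) and 1.34 (labelled SHT brain). On the rest it read 2.61 (mock uterus), 272 (mock ovary) and 454 (SHT uterus), the last above background. Of 11 ovary markers, 10 were above background on the arrays labelled SHT brain and mock uterus and 2 on each of the other 4 arrays. Star, which brings cholesterol into mitochondria, read 9160 and 10428 on those 2 arrays and at most 78.3 elsewhere. All 10 squamous epithelial markers passed background on both the SHT uterus and the mock ovary arrays. Their summed intensity was 379633 (mock ovary) and 273308 (SHT uterus) on this pair, against at most 7572 on the others. The 10 markers of uterus and lower tract did not separate these arrays by count, with 9 above background on both, and 9 and 8 on the arrays labelled SHT brain and mock uterus. Their summed intensity ran from 73585 to 193423 on these 4 arrays and was 7407 under the label mock brain and 6349 under SHT ovary. Gene by gene, all but Ltf and Lcn2 were higher on both arrays labelled mock ovary and SHT uterus than on either labelled SHT brain or mock uterus. Of these, Hoxa13 was under background on every array. Hoxa10 read 2805 (mock ovary) and 6642 (SHT uterus), against 1163 (SHT brain) and 324 (mock uterus). The arrays are therefore called by their labels and described in 3 pairs by marker profile: a brain profile (labelled mock brain and SHT ovary), an ovary profile (labelled SHT brain and mock uterus) and a squamous profile (labelled mock ovary and SHT uterus). No label was changed, and no difference is assigned to a tissue or to SHT. Where 6 intensities are given for a gene, they follow that order, 2 for each profile.

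Across the 6 arrays, 25 of the 42 members were above background on at least 1 array, against 66.0% of all genes. The number per array was 16 and 18 on the brain-profile arrays (44.2% and 48.0% of all genes), 16 and 15 on the ovary-profile arrays (54.4% and 55.3%), and 13 and 17 on the squamous-profile arrays (51.0% and 55.2%). By family these 25 were 14 Sox, 2 Pax, 4 Gata and 5 Lhx genes. Of them, 4 Sox and 2 Lhx genes were above background on all 6 arrays, a count that was not made over all genes. The other 17 members, between 2.33 and 296 on every array, were under background throughout: Gata1, Gata5, Lhx3, Lhx5, Lhx8, Pax1, Pax2, Pax3, Pax4, Pax5, Pax7, Pax9, Sox6, Sox11, Sox12, Sox14 and Sox30. The genes nearest the limit were Pax3, at most 0.93 times the background of its array, and Lhx1, at most 1.01 times.

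**Figure D1:**
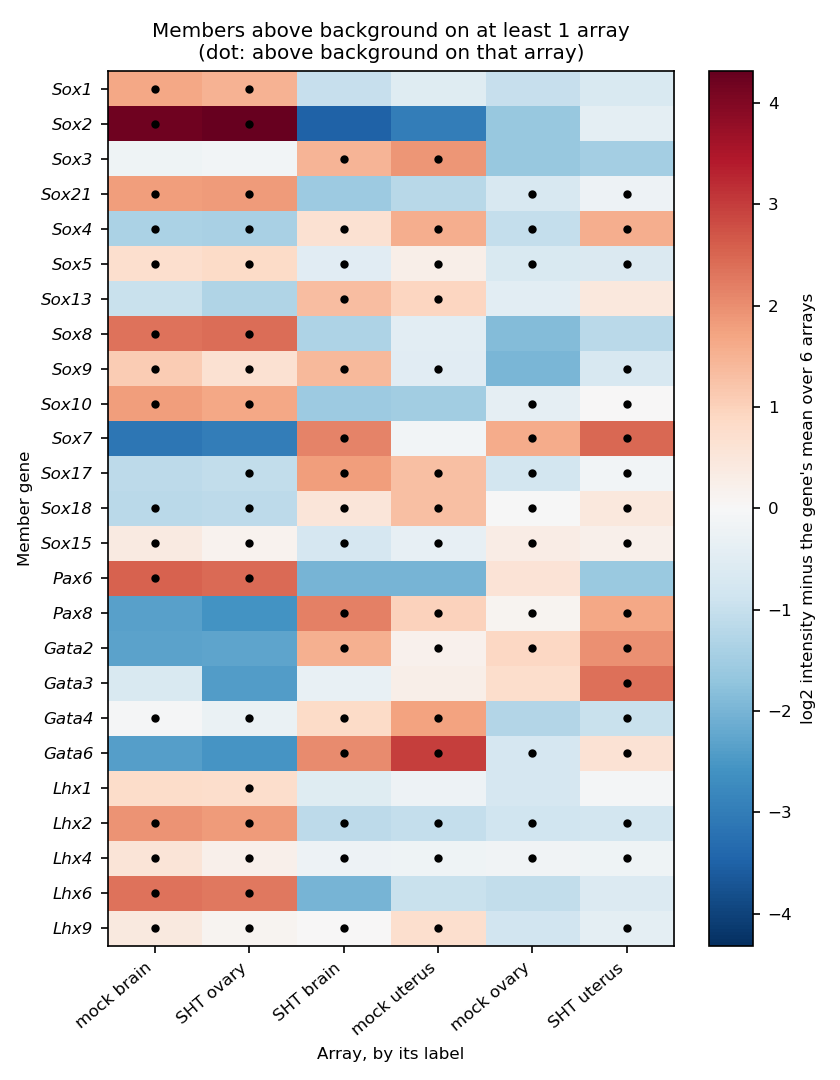
Log2 intensity of the 25 members above background on at least 1 array (rows), minus each gene's mean over the 6 arrays, by array label (columns, in pairs of like marker profile). Dots mark values above background. Sox2, Sox8, Pax6 and Lhx6 are above background in the first 2 columns alone, and Gata2, Gata6 and Pax8 on the other 4 arrays.

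The stretch of DNA before a gene's start is shown for members with opposite patterns, Sox2 and Lhx2, highest on the brain-profile arrays, and Pax8 and Gata2, higher on the other 4. The sequences are the 250 bases before the start in RefSeq's mouse assembly GRCm38.p6, 5′ to 3′ on the gene's strand. Capitals mark any of 5 motifs searched on both strands, none of which contains another. They were the GC box (GGGCGG), the CCAAT box (CCAAT), a Sox motif spelled ACAATG in one form and ACAAAG in the other, a GATA motif spelled AGATAA in one form and TGATAA in the other, and the core of LIM homeodomain sites (TAATTA).
Sox2, chr3:34649745-34649994, plus strand: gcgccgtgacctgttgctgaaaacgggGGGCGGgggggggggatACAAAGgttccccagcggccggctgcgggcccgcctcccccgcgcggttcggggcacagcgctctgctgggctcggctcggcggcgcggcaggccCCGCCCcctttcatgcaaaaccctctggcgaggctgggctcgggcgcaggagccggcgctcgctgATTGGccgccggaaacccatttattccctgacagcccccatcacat
Lhx2, chr2:38339031-38339280, plus strand: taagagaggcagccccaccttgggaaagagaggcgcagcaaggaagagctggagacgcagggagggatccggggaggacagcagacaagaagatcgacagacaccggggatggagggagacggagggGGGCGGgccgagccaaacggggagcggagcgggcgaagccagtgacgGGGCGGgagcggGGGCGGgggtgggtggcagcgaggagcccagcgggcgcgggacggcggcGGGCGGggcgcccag
Pax8, chr2:24475600-24475849, minus strand: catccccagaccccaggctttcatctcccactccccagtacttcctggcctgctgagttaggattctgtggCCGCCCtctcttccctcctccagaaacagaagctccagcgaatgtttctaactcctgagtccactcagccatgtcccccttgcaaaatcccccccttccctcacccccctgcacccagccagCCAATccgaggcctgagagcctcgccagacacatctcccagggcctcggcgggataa
Gata2, chr6:88198414-88198663, plus strand: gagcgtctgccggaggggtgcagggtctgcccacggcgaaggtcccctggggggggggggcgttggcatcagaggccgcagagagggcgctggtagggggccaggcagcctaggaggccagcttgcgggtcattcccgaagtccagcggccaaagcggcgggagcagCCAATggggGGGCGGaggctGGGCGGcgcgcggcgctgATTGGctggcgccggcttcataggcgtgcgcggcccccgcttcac
The Sox2 window held 1 Sox motif, 2 GC boxes and 1 CCAAT box, this start of Lhx2 4 GC boxes, the Pax8 window 1 GC box and 1 CCAAT box, and this start of Gata2 held 2 of each. Another start of Lhx2 held none of the 5 motifs, and another of Gata2 held 1 GC box. Promoter windows were at hand for 31 of the 42 members, as 44 windows where genes have several starts. GC boxes stood in 25 of the 44 (56.8%) and in 32.7% of all 32851 windows of the same length. Sox motifs stood in 13 member windows (29.5%, against 25.2% of all), GATA motifs in 6 (13.6% against 16.6%), CCAAT boxes in 17 (38.6% against 33.8%) and the LIM homeodomain core in 0 (against 4.84% of all). Sox6 gave 6 of the 44 windows, and the median GC content was 60.8% in member windows and 52.4% in all. A match is a description of these letters and not a binding site.

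The Sox genes of neural progenitors come first. Sox2, which keeps neural stem cells undifferentiated, read 3073, 3335, 14.96, 21.3, 54.4 and 125. It was above background on the brain-profile arrays alone. Sox1, its close relative, read 955, 850, 149, 208, 149 and 191, and was above background on the same arrays. Sox21, which counters these factors, read 2243, 2317, 217, 284, 401 and 557. It was highest on the brain-profile arrays too, but also passed background on both squamous-profile arrays. Sox3, the third gene of the same subgroup, which is also used in the gonads, ran differently. It read 270, 281, 838, 1133, 98.4 and 111, and passed background on the ovary-profile arrays alone.

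The SoxE genes (Sox8, Sox9 and Sox10) act in glia, neural crest, cartilage and gonads. Sox10, which switches on myelin genes, read 2197, 1975, 211, 219, 478 and 635. It was highest on the brain-profile arrays, above background on the squamous-profile arrays and under it on the ovary-profile arrays. Its second probe gave the same order of the 6 arrays, with 867 and 755 on the brain-profile arrays and between 173 and 326 on the others. On the array labelled mock ovary this probe read 229, under the background of 312. Sox8 read 781, 814, 61.0, 112, 42.1 and 68.7, above background on the brain-profile arrays alone. Sox9, known from astrocytes and from cartilage, did not follow the profiles. It read 1269, 941, 1577, 424, 154 and 365, so that its highest value lay on the array labelled SHT brain, 3.72-fold above the other ovary-profile array. Oligodendrocyte genes, of which 10 were on the platform, had a summed intensity of 65515 and 62219 on the brain-profile arrays and between 4824 and 6987 on the others. Of the 7 above background there, Olig1, a transcription factor of the lineage, read 15241 and 14706, and at most 296 elsewhere. Mbp of this list is also a brain marker. The part of oligodendrocytes in the Sox8 and Sox10 values was not tested. In a tissue sample, fewer cells of a type and less RNA per cell cannot be told apart. Of 9 cartilage genes, 3 were above background on any array.

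SoxF genes (Sox7, Sox17 and Sox18) are known from endothelium. Sox18 read 644, 660, 2098, 3566, 1435 and 1989, above background everywhere and lower on both brain-profile arrays than on any other. Sox17 read 416, 433, 3145, 2194, 519 and 839, highest on the ovary-profile arrays. Sox7 read 31.4, 34.8, 1190, 253, 828 and 1505. It was far under background on the brain-profile arrays and differed between the ovary-profile arrays, at least 4.03-fold higher under the label SHT brain than under mock uterus. Endothelial genes followed the order of Sox18 in part. Of 13 on the platform, 6 and 11 were above background on the brain-profile arrays and 12 on each of the others. Their summed intensity was 16160 and 17248 on the brain-profile arrays and between 18470 and 30862 on the rest. Cdh5, the cadherin of endothelial junctions, read 470, 445, 1578, 2800, 963 and 1934. Like Sox18, 7 of the 13 genes, Cdh5 among them, were lower on both brain-profile arrays than on any other, and the other 6 were not. Flt1, a receptor for vascular growth factors that was picked after its values were seen, was highest there, at 1754 and 1806 against at most 1234 elsewhere. The part of endothelial cells in the SoxF values was not tested.

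The remaining Sox genes belong to the SoxC, SoxD and SoxG groups. Sox4, a SoxC gene of progenitors in many tissues, read 846, 812, 3435, 6375, 1069 and 6387. It was above background on all arrays, and the squamous-profile arrays stood 5.98-fold apart, with the array labelled mock ovary near the level of the brain-profile arrays. Sox5, a SoxD gene, read 1122, 1212, 479, 799, 428 and 436, highest on the brain-profile arrays. Sox13, another SoxD gene, read 105, 82.1, 513, 381, 146 and 278, above background on the ovary-profile arrays. Sox15 lay between 301 and 644 and was above background on every array. Sox11, a SoxC gene of immature neurons, was under background on all arrays, at 38.4 and 39.9 on the brain-profile arrays.

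Among Pax genes only Pax6 and Pax8 passed background. Pax8, a factor of the thyroid and of the epithelium derived from the Müllerian duct, read 130, 110, 2939, 1316, 710 and 2067. It was above background on the ovary-profile and squamous-profile arrays and under it on the brain-profile arrays. Pax6, a factor of eye and forebrain, read 601, 562, 25.9, 25.97, 154 and 34.3, the reverse arrangement. Pax2, a partner of Pax8 in the duct, was highest at 245 and 173 on the brain-profile arrays, both under background. Pax5, the B lymphocyte factor, read 160 and 146 there and at most 5.30 elsewhere, again under background. Of 12 genes of the Müllerian duct list, 3 and 3, 8 and 6, and 5 and 7 were above background on the arrays of the 3 profiles. Of these 12 genes, 6 were lower on both brain-profile arrays than on any other, and the rest were not. Wt1, a zinc finger factor of the urogenital ridge, read 33.4, 28.8, 3544, 4924, 1212 and 3030. Wnt7a of the same list, picked after its values were seen, read 700, 616, 654, 223, 87.8 and 329. Ovgp1, the oviduct glycoprotein, read 25536 and 31822 on the ovary-profile arrays and at most 146 on the others, so the ovary-profile arrays also carried the transcript of an oviduct gene. The part of oviduct tissue in the Pax8 values was not tested.

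Gata genes differed in their order over the ovary-profile and squamous-profile arrays, and Gata2 did not separate these profiles. Gata6 read 168, 147, 3564, 6846, 528 and 1348, and its highest values lay on the ovary-profile arrays. Gata4, its partner in granulosa and theca cells, read 681, 580, 1257, 2353, 295 and 364. It too was highest on the ovary-profile arrays, but was above background on the brain-profile arrays as well and higher there than on the squamous-profile arrays. Gata2, a factor of blood progenitors, endothelium and uterine stroma, read 196, 198, 2777, 1106, 1803 and 3807, above background on all but the brain-profile arrays. Its second probe placed these 4 arrays in the same order, from 1768 on the array labelled SHT uterus to 402 on that labelled mock uterus. Gata3, a factor of T lymphocytes and of stratified epithelium, read 117, 34.3, 146, 218, 307 and 950. It passed background on the array labelled SHT uterus alone, and the array labelled mock ovary lay just under its background of 312. Gata1, the erythroid factor, was under background throughout, at most 155.

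The genes that Gata4 and Gata6 are known to control in the gonad had their highest values on the same arrays as Gata6. Of 11 on the platform, 10 and 10 were above background on the ovary-profile arrays, 1 and 1 on the brain-profile arrays and 3 and 2 on the squamous-profile arrays. Star, Hsd3b1, Inha, Amh and Foxl2 of this list are also among the ovary markers that named the profile, so these counts are not independent of it. Hsd17b1, which makes oestradiol, read 16769 and 19134 on the ovary-profile arrays and at most 136 elsewhere. The Gata cofactor list was more even, with 3 to 5 of 7 genes above background on each array. Zfpm2, the cofactor that pairs with Gata4, read 937, 775, 687, 1276, 136 and 299, an order that set both squamous-profile arrays lowest, as for Gata4. Squamous transcription factors, listed beside Gata3, had all 11 genes above background on both squamous-profile arrays, with Trp63, the master factor of stratified epithelium, at 6690 and 8031. Trp63 was thus similar on arrays where Gata3 read 307 and 950. It is also among the squamous markers that named the profile. Of 10 lymphocyte genes, 3 or 4 were above background on each array. Cd3e, of the T cell receptor complex, was highest on the ovary-profile arrays (2394 and 3259), but Cd3g, Cd4, Cd8a and Cd2 were under background on every array. Cd22, of the same list, was highest on the brain-profile arrays (11044 and 12232). Of 8 erythroid and mast cell genes, 4 passed background on the array labelled SHT uterus and 2 or 3 on each of the others. Cpa3, a mast cell protease, was highest on the array labelled SHT uterus (2061). Kit, of the same list, was highest on that labelled mock brain, at 3508 against 1862 on SHT uterus.

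Lhx genes were mostly highest on the brain-profile arrays. Lhx2, which patterns the cortex, read 3290, 3074, 392, 420, 474 and 496, above background on all arrays. Its lower brain-profile value was 6.20-fold above its highest value on the other arrays. Lhx6, a factor of cortical interneurons, read 694, 673, 33.9, 70.5, 66.6 and 91.6. It was above background on the brain-profile arrays alone. Lhx4 lay between 467 and 803 and Lhx1 between 149 and 419, both highest on the brain-profile arrays, and Lhx1 passed background on the array labelled SHT ovary alone. Background was also highest on the brain-profile arrays, at 541 and 403 against 275 to 318 elsewhere, and Lhx4 values were at most 1.72-fold apart. Lhx9, a factor of the gonadal ridge, read 655, 531, 496, 820, 278 and 365, above background on all but the array labelled mock ovary. Its second probe read at most 5.01 on any array. Lhx8, which acts in oocytes and in cholinergic neurons, was highest on the ovary-profile arrays (108 and 159) on the probe used, under their background of 275 and 295, and its second probe was highest on the array labelled mock uterus (109). Oocyte genes that act beside Lhx8 were above background there, 9 of 12 on both ovary-profile arrays, with Padi6 at 8591 and 13923. On the brain-profile arrays 2 and 2 were, and on the squamous-profile arrays 1 and 1. Gdf9, Zp1, Zp2, Zp3 and Oosp1 are also among the ovary markers that named the profile. Sohlh2, picked after its values were seen, ran the other way, at 704 and 604 on the brain-profile arrays and at most 278 elsewhere.

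The LIM complex list holds genes of proteins that work with Lhx factors, and also the LIM homeodomain genes Isl1, Isl2, Lmx1a and Lmx1b. Its count above background was similar on all arrays, which does not measure how far the values differed. Of 14 LIM complex genes, between 8 and 10 were above background on each array. Lmo3, a LIM-only protein of neurons, read 1965 and 2051 on the brain-profile arrays and at most 80.3 elsewhere. Isl1, a LIM homeodomain factor, ran the other way, with 609 and 1535 on the squamous-profile arrays and at most 189 elsewhere. Transcription factors of the forebrain and of neurons were above background in 12 of 13 cases on both brain-profile arrays and in 3 or 4 cases on the others. Neurod2, a factor of excitatory neurons, read 4977 and 5652 there and at most 28.7 elsewhere. Emx2 and Dlx5 of this list, picked after their values were seen, ran otherwise. Emx2 read 611 and 624 on the brain-profile arrays and between 1714 and 3614 elsewhere. Dlx5 read 1269 and 1160 on the brain-profile arrays, 5958 and 382 on the ovary-profile arrays and 3752 and 4297 on the squamous-profile arrays.

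**Figure D2:**
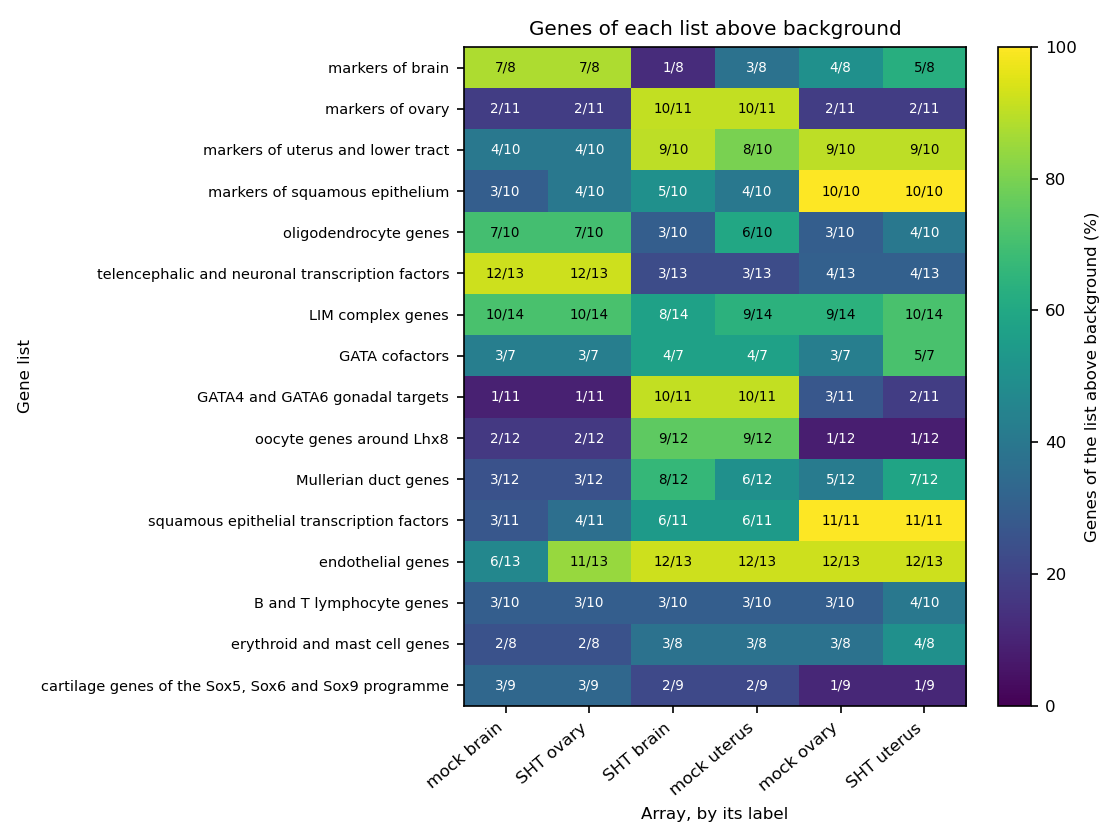
Genes above background (count of those on the platform, colour as a percent) for each gene list (rows) on each array (columns, by label). Ovary markers and gonadal Gata targets have 10 of 11 genes above background on the arrays labelled SHT brain and mock uterus, and squamous transcription factors have 11 of 11 in the last 2 columns. Some genes stand in several lists, as Star, Hsd3b1, Inha, Amh and Foxl2 do among ovary markers and gonadal Gata targets.

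The arrays on which a gene was highest gave the same picture in counts. Of the 25 members above background somewhere, 11 had their highest 2 values on the brain-profile arrays, against 28.2% of all such genes. They were Lhx1, Lhx2, Lhx4, Lhx6, Pax6, Sox1, Sox2, Sox5, Sox8, Sox10 and Sox21. Another 6 (Gata4, Gata6, Sox3, Sox13, Sox17 and Sox18) were highest on the ovary-profile arrays, against 15.5% of all such genes. Gata3 alone was highest on the squamous-profile arrays, against 14.9%. Gata2, Pax8 and Sox7 were highest on the arrays labelled SHT brain and SHT uterus, which differ in profile, against 5.58%. The last 4 members each had a pair of different profiles to themselves. These were Sox4 (mock uterus and SHT uterus, the pair of 20.1% of genes), Lhx9 (mock brain and mock uterus, 2.84%), Sox15 (mock brain and mock ovary, 1.47%) and Sox9 (mock brain and SHT brain, 0.632%). These shares have no test, and 1 member is 4% of 25.

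The labels' own question was which genes differed after SHT in each tissue. A gene was counted where its intensities were at least 2-fold apart and their mean on the log2 scale was above the median of all probes (the level floor). Folds in these labelled pairs are relative to the median gene of the pair, while folds elsewhere are plain ratios of intensities. The median gene differed by -0.12, 0.13 and -0.02 on the log2 scale in the pairs labelled brain, ovary and uterus. Folds are lower bounds ("at least") where the dimmer array was under background, and its background was then used in place of its value.

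In the pair labelled brain, an array of ovary profile was set against one of brain profile. Of the 42 members 21 were above the level floor, of which 8 were higher on the SHT array, where 22.0% of genes above the floor were higher, and 9 lower, where 24.1% were lower. Gata6 was at least 7.14-fold higher, Sox17 at least 6.30-fold, Pax8 at least 5.89-fold, Gata2 at least 5.56-fold, Sox4 4.41-fold and Sox18 3.53-fold. Sox3 (at least 1.68-fold) and Sox13 were also counted as higher, although Sox13 on the SHT array (513) was under the background of the mock array (541). Neither was counted with every value under its array's background raised to that background. Sox2 was at least 10.3-fold lower, Lhx2 7.73-fold, Sox21 at least 7.52-fold, Sox10 at least 7.37-fold, Sox1 at least 3.20-fold, Sox8 at least 2.62-fold and Sox5 2.16-fold. Sox15 (1.97-fold) and Lhx1 were counted as lower too, and Lhx1 was under background on both arrays. Sox1, Sox2 and Sox21 of progenitors and Sox8 and Sox10 of glia were thus lower, and Sox17, Sox18, Gata2, Gata6 and Pax8 higher. Sox7 (at least 2.38-fold higher), Pax6 (at least 2.02-fold lower) and Lhx6 (at least 2.33-fold lower) were under background on the dimmer array and missed the level floor, and were counted with values raised to background. The median difference was -0.36 over the 42 members.

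In the pair labelled ovary, an array of brain profile was set against one of squamous profile. Of 20 members above the floor, 10 were higher on the SHT array (25.5% of genes) and 4 lower (21.3%). Sox2 was at least 9.77-fold higher, Lhx2 5.94-fold, Sox21 5.28-fold, Sox10 3.78-fold, Sox9 at least 2.76-fold, Sox5 2.59-fold and Sox1 at least 2.49-fold. Lhx1, Lhx6 and Pax6 were higher as well, with lower bounds from 1.19-fold to 1.97-fold. Gata2 was at least 4.90-fold lower, Sox18 2.38-fold, Pax8 at least 1.93-fold and Gata6 at least 1.43-fold. Sox8 (at least 2.39-fold higher) and Sox7 (at least 2.25-fold lower) missed the level floor. With values raised to background Pax8, Gata6, Lhx1 and Pax6 were not counted, and Sox7 and Sox8 were. The median difference over the 42 members was 0.30. Set beside the pair labelled brain, 11 members were counted in both pairs with opposite directions, 8 of them also with values raised to background. The brain-profile array was the mock array in the pair labelled brain and the SHT array in the pair labelled ovary. Opposite directions were not counted over all genes, so this number is not read as a trait of the members.

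In the pair labelled uterus, an array of squamous profile was set against one of ovary profile. Of 20 members above the floor, 4 were higher on the SHT array (12.9% of genes) and 5 lower (8.51%). Sox7 was at least 5.16-fold higher, Gata2 3.48-fold, Gata3 at least 3.26-fold and Sox10 at least 2.18-fold. The second probe of Sox10 read 326 on the SHT array and 178 on the mock array, less than 2-fold apart. Gata4 was 6.40-fold lower, Gata6 5.02-fold, Sox3 at least 3.52-fold, Sox17 2.59-fold and Lhx9 2.22-fold. The Gata family was thus divided, with Gata2 and Gata3 on one side and Gata4 and Gata6 on the other. The median difference over the 42 members was -0.03. Of the 11 gonadal Gata targets, 10 were above the floor, of which 9 were lower, like Gata4 and Gata6, and none higher. The exception was Wt1, and Amh missed the floor. Some of these targets are also the ovary markers named above, so their direction in this pair is not independent of the profiles. The list median was -6.29 on the log2 scale, a size that rests on values under background on the SHT array.

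**Figure D3:**
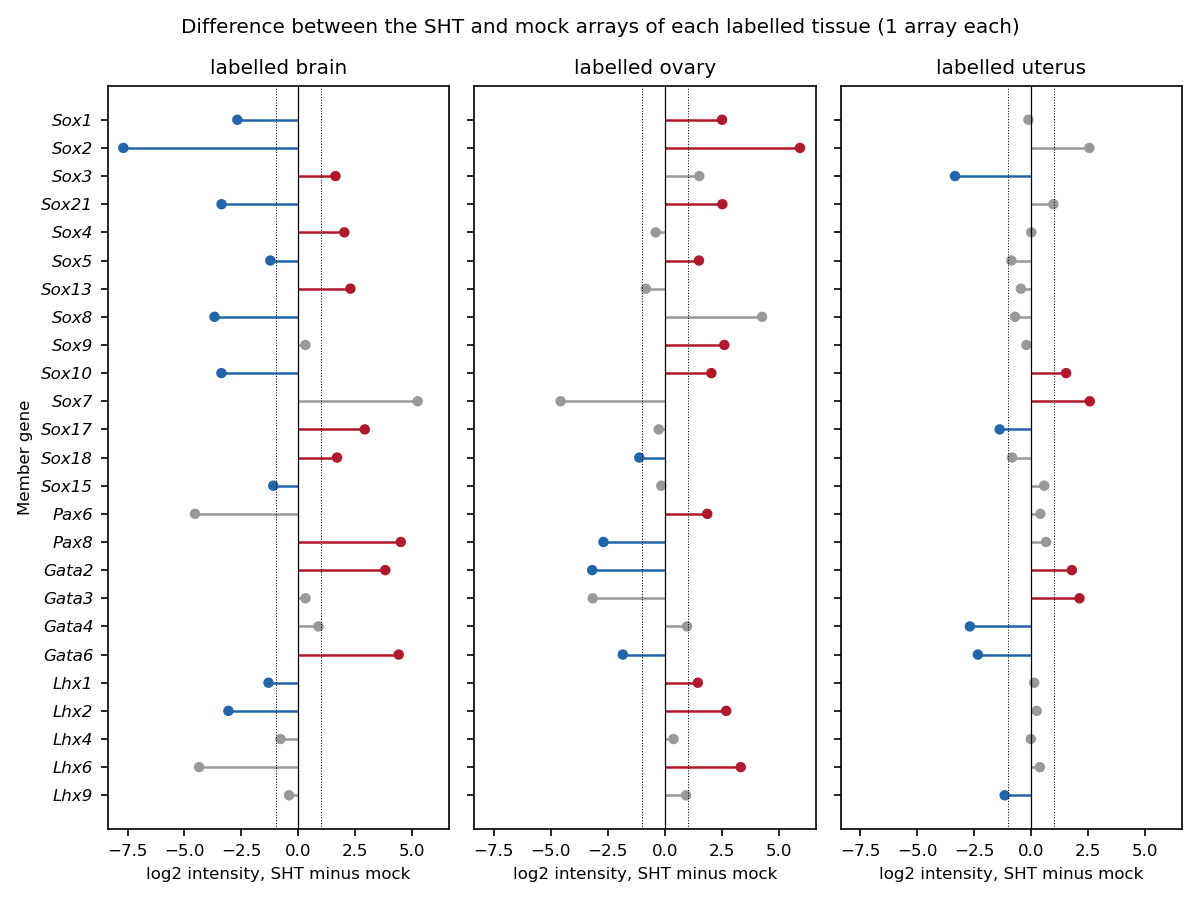
Log2 intensity on the SHT array minus that on the mock array (horizontal axis) for 25 members (rows) in the pairs labelled brain, ovary and uterus. Red and blue points are at least 2-fold higher or lower with a pair mean above the level floor, grey points are not counted, and dotted lines mark 2-fold. Sox2 is at -7.68 in the pair labelled brain and at 5.94 in that labelled ovary, with its dimmer array under background in both, so that these sizes are not measured.

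The average of the 3 labelled SHT differences was tested with limma, with labelled tissue as a block, on 10754 genes, 19 of them members. It called 0 members and 0% of all genes at an adjusted p under 0.05, with 0 members and 4 genes at an unadjusted p under 0.05. The smallest p among members was that of Sox9 (limma, adjusted p = 0.99996), whose average difference was 0.91 on the log2 scale (95% interval -1.28 to 3.09) and whose SHT array was higher in 2 of 3 labelled tissues. This test measures the spread between labelled tissues, not between mice. With arrays of different profile in each pair it does not show that members did not differ.

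The 15 pairs of arrays showed how far members moved beside all genes. The arrays of brain profile, which correlated at 0.996 over all probes, differed at least 2-fold in 0 of 19 members above the floor, against 0.189% of genes. The ovary-profile arrays correlated at 0.981 and differed in 4 of 18 members, against 7.70% of genes. Gata2 (2.51-fold), Pax8 (2.23-fold), Sox7 and Sox9 were all higher on the array labelled SHT brain, while Gata6 was 1.92-fold and Sox4 1.86-fold higher on that labelled mock uterus. The squamous-profile arrays correlated at 0.972 and differed in 6 of 18 members, against 18.2% of genes. Sox4 (5.98-fold), Gata3 (at least 3.04-fold), Pax8 (2.91-fold), Gata6 (2.55-fold), Gata2 (2.11-fold) and Sox9 were higher on the array labelled SHT uterus. In these 2 pairs the SHT and mock labels come from different labelled tissues, so label and mouse cannot be told apart, and 1 array on each side leaves no test.

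By the share of members at least 2-fold apart, arrays of different profile stood further apart. Over all genes above the floor, the median absolute log2 difference of the squamous-profile arrays (0.53) was larger than that of 3 pairs of ovary and squamous profile (0.42 to 0.47). The array labelled mock brain differed in 16 of 20 members from that labelled mock ovary (47.1% of genes), in 15 of 20 from mock uterus (46.1%) and in 15 of 21 from SHT uterus (47.1%). Its partner of brain profile, labelled SHT ovary, differed in 18 of 22 members from SHT brain (45.4%), in 16 of 21 from mock uterus (45.8%) and in 15 of 21 from SHT uterus (47.1%). Sox1, Sox2, Sox10, Sox21 and Lhx2 were counted as higher on the brain-profile array, and Gata2, Gata6, Pax8 and Sox18 as lower, in all 8 pairs of a brain-profile array with another, the labelled pairs included. These counts take values under background as they are. On the array labelled mock ovary, Pax8 was at least 1.31-fold above mock brain and at least 1.76-fold above SHT ovary. Gata6 there was at least 1.31-fold above SHT ovary, and its 528 was under the background of mock brain (541). Between ovary and squamous profile the counts were smaller, with SHT brain and mock ovary apart in 11 of 19 members (21.8%), SHT brain and SHT uterus in 8 of 19 (20.6%), and mock uterus and mock ovary in 11 of 19 (32.3%). Gata4, Gata6, Sox3 and Sox17 were counted as higher on the ovary-profile array, and Sox10 as lower, in all 4 such pairs, that labelled uterus included. Sox10 was under background on both ovary-profile arrays, and on the array labelled mock ovary it was at least 1.74-fold above SHT brain and at least 1.62-fold above mock uterus. Its second probe read 173 and 178 on the ovary-profile arrays and 229 and 326 on the squamous-profile arrays, less than 2-fold apart in each such pair.

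**Figure D4:**
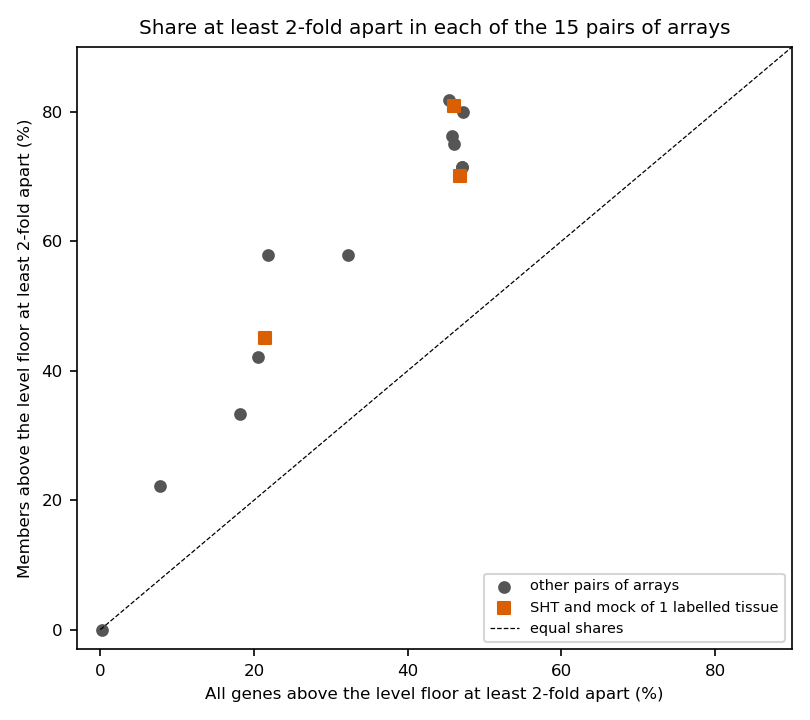
Share of members above the level floor that were at least 2-fold apart (vertical axis, percent) against the same share over all genes (horizontal axis, percent) for each of the 15 pairs of arrays. In the pair of brain-profile arrays the shares are 0% and 0.189%, in the pair labelled brain 81.0% and 46.1%, and 14 of the 15 points lie above the line of equal shares.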

How the data were processed

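Per the labels, Cy5-labelled amplified RNA was hybridised to 1-colour arrays. The authors deposited linear intensity for 26423 probes per array, and the submitters' processing notes name limma without version or role. No source used here states the background correction, scaling, filters or detection flags, and the deposited intensity was not rescaled. Groups follow the labels.

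Values were raised to each array's 5th percentile of positive intensity (5.66 to 6.66) and put on the log2 scale. Symbols came from the platform annotation (20377 probes with 1 symbol, 6046 with none) and were updated through RefSeq's mouse table of GRCm38.p6. All 42 members carried current symbols. Probe sequences were not analysed here, so whether each probe measures its named gene was not tested.

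With 1 array per group, counts have no test. limma 3.58.1 (R 4.3.3) tested the SHT effect averaged over tissues (eBayes with a trend, two-sided, Benjamini-Hochberg adjustment over all genes tested) on genes whose mean was above the median of all probes, and the code was tested on simulated data. Every member above background was named. From each list at most 3 genes were given with values, those with the widest range, apart from genes marked as picked after their values were seen. The families, and so their members, and the gene lists were chosen with earlier results of these data known, and the rule by symbol used no value. Alternatives were other scalings, probe choices, floors and thresholds.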

Additional observations from a re-analysis of the deposited data

Results flagged for a closer look

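Members whose SHT array lay at least 2-fold above the mock array in one labelled tissue and at least 2-fold below it in another are given here. The differences between tissues were not tested, since each rests on 1 array per group. Opposite directions were not counted over all genes, so the numbers of members have no share to be read beside. The arrays of these pairs differ in marker profile. Their part in these differences was not tested.

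Between the pairs labelled brain and ovary, 11 members ran in opposite directions. Values are the log2 difference in the pair labelled brain minus that in the pair labelled ovary. Above background on all 4 arrays were Lhx2 (-5.77), Sox5 (-2.73) and Sox18 (2.82). Sox10 (-5.43) and Sox21 (-5.90) were under background on the dimmer array of the pair labelled brain. Gata2 (7.01), Gata6 (6.25), Lhx1 (-2.76), Pax8 (7.19), Sox1 (-5.19) and Sox2 (-13.62) were under background on the dimmer array of both pairs. The sizes of these 8 are therefore not measured and have no order. With values raised to background, Gata6, Lhx1 and Pax8 were no longer opposite.

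Between the pairs labelled brain and uterus, 4 members were opposite: Gata6 (brain minus uterus, 6.75), Sox3 (4.98), Sox17 (4.31) and Sox10 (-4.91). Between the pairs labelled ovary and uterus 1 member was, Gata2 (ovary minus uterus, -4.97). All 5 values rest on at least 1 array under background, and with values raised to background Sox3 was no longer opposite. On the second probe of Sox10 the arrays of the pair labelled uterus were less than 2-fold apart.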

How the results depend on the processing

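The level floor had the largest effect on the counts of members at least 2-fold apart. With the floor at the 75th percentile of all probes they fell to 4, 4 and 3 in the pairs labelled brain, ovary and uterus, from 17, 14 and 9, because fewer members were tested. Without a floor the count in the pair labelled ovary was 24. Under centring on the median, quantile normalization, averaging the probes of a gene, the probe with the highest log2 mean, a 3-fold threshold and raised values, these counts stayed within 1.5 times. In the pair labelled brain, centring took Sox15 (-0.83) and Sox5 (-0.96, both on the log2 scale) under 2-fold and brought Gata4 (1.15) past it, and quantile normalization did so for Sox15 (-0.95) and Gata4 (1.01). With values raised to background, an alternative chosen after seeing the data, Sox13 in the pair labelled brain turned to -0.076, and Sox3 (0.63) and Lhx1 (-0.98) there and Gata6 (-0.39), Pax8 (-0.82), Lhx1 (0.38) and Pax6 (0.85) in the pair labelled ovary fell under 2-fold. The Sox13 value was the 1 reversal among 675 single values recomputed, of which 610 kept their call. Between 20 and 26 members passed background under other percentiles and probe choices. On the arrays labelled mock brain and SHT uterus alone, 22 did. The markers did not go against these labels, although all 10 squamous markers were also above background on the array labelled SHT uterus. Those arrays hold no labelled pair, so the SHT counts could not be had without the other 4. The average SHT effect had 0 members called under every alternative run, leaving out each labelled tissue included. It was fitted with labelled tissue as a block, and without that block 0 members were called too.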
